A study of Mus musculus with 9 samples.

Results

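The comparison set the libraries labelled LATS1/2-Sox9-KO against the control libraries, 6 of the 9 RNA-sequencing libraries of the series, with 3 libraries on each side chosen by their labels and not by any measured value. All libraries came from adult nulliparous mice that carried the lsl-EYFP reporter and K8CreERT2, a tamoxifen-inducible Cre recombinase driven by the Krt8 promoter of luminal mammary cells. The control mice had no floxed gene. The compared mice added floxed Lats1 and Lats2 (LATS1/2f/f) and floxed Sox9 (Sox9f/f) to the same reporter and Cre, and 3 further libraries, labelled LATS1/2-KO, came from mice that added LATS1/2f/f alone. Every group received 5 daily doses of 2 mg of tamoxifen, and EYFP+ cells were sorted 7 days after the last dose, so the controls shared the drug, the Cre and the reporter. EYFP reports Cre activity in a cell or its ancestor and does not show by itself that each floxed allele was recombined. The labels do not say whether the 3 libraries of a group came from separate mice, so the p-values below measure the spread between these libraries, which may be technical.

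LATS1 and LATS2 are the kinases at the end of the Hippo pathway. They phosphorylate the coactivators YAP and TAZ, which keeps them out of the nucleus, and without that restraint YAP and TAZ bind TEAD transcription factors and switch on genes of growth, adhesion and matrix. In the mammary duct an inner luminal layer, made of hormone-sensing cells and of progenitors of milk-secreting cells, is surrounded by basal myoepithelial cells that contract and touch the basement membrane. SOX9 is a transcription factor of luminal progenitors and, outside the gland, the driver of cartilage matrix genes. The comparison asks what state luminal cells reach when all 3 genes are targeted together.

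The control libraries held 47003587, 46719296 and 44167762 counts, and the LATS1/2-Sox9-KO libraries held 61967651, 55503365 and 59696754. At this depth counting error is small for all but the lowest genes, and the 3 libraries per group set the precision. Values per library are normalized counts, scaled to the mean effective library size of 53847000, and are given for libraries 1, 2 and 3 in that order. Fold changes are on the log2 scale from edgeR's quasi-likelihood fit, with Benjamini-Hochberg adjusted p-values over 19357 genes, and a gene was called when its log2 fold change was above 1 or below -1 at an adjusted p of at most 0.05. Only called genes are said to have risen or fallen, and the 3 and 3 libraries of such a gene did not overlap unless overlap is stated. Where 2 sets of 3 values are set against each other, control comes first. Folds given as at least a value compare group means, and a single library can differ by less.

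The targeted genes were read first. Lats1 (chr10:7681214-7716460, GRCm38) was counted 5672, 5928 and 5940.5 times in control and 2058, 1844 and 1709 times in LATS1/2-Sox9-KO, a log2 fold change of -1.64 (SE 0.11, edgeR adjusted p = 2.80e-06). Sox9 (chr11:112782224-112787760) was at 23313, 19948 and 21534 in control and at 8812, 6756 and 6459.7 in LATS1/2-Sox9-KO, a log2 fold change of -1.56 (SE 0.20, edgeR adjusted p = 9.39e-05). Both fell with no overlap between the groups, and neither was near 0. In the LATS1/2-KO libraries, where Sox9 was not targeted, Sox9 was at 7205, 9506 and 12433, and the difference between the 2 deletion genotypes was -0.40 on the log2 scale (edgeR adjusted p = 0.25), which did not pass the test. Lats2 (chr14:57689662-57758388) was at 1039, 865 and 1219.7 in control and 1957, 1580.4 and 1239.7 in LATS1/2-Sox9-KO, so every LATS1/2-Sox9-KO library was above every control library, by 0.61 on the log2 scale (edgeR adjusted p = 0.024), and the gene was not called. Gene totals add all exons, deleted and kept, so the RNA of an allele that has lost some exons is still counted, and 42.4% of the exon length of Lats2 is shared with the predicted gene Gm49361. The Lats2 counts therefore go against a reading of the label as loss of RNA, and LATS1/2-Sox9-KO and LATS1/2-KO below stand for the libraries so labelled.

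The 2 groups were far apart relative to their own spread. Pairs of libraries, compared by the root mean square log2 difference over all tested genes, differed by 0.609 to 0.802 within control, by 0.549 to 0.710 within LATS1/2-Sox9-KO, and by 1.91 to 2.01 between these groups. LATS1/2-Sox9-KO and LATS1/2-KO libraries differed by 0.852 to 1.03, close to the 0.684 to 1.01 within LATS1/2-KO. The first principal component took 71.6% of the variance and separated the control libraries (-164 to -161) from all 6 libraries with floxed genes (53.1 to 101.0). The second took 8.47%, with LATS1/2-Sox9-KO at 32.6 to 57.6 and LATS1/2-KO at -69.3 to -12.9.

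**Figure D1:**
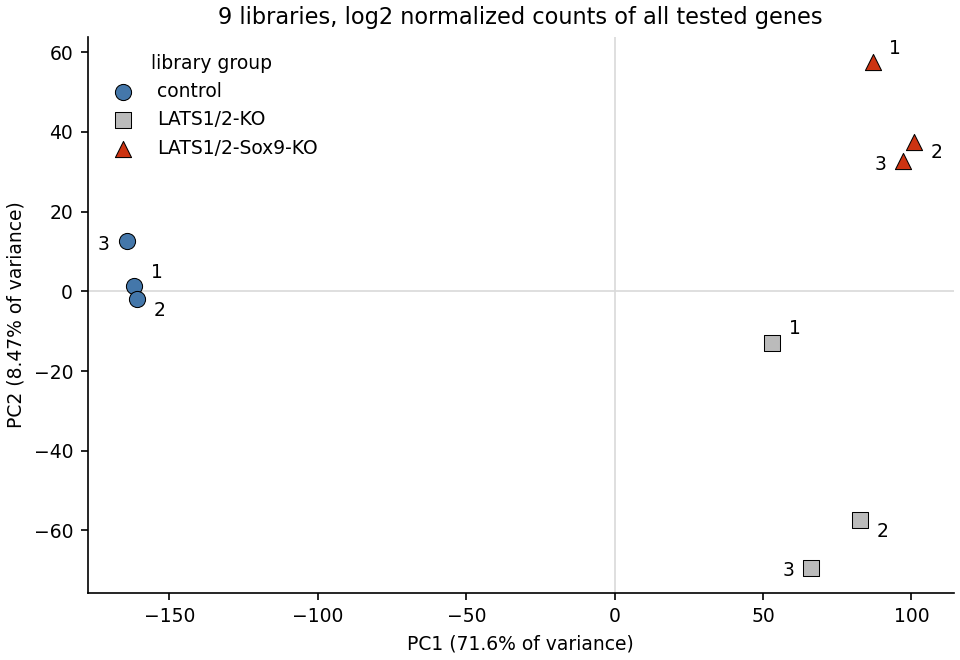
Each point is 1 library, placed by the first and second principal components of log2 normalized counts and numbered by its label. The 3 control libraries sit together on the left (-164 to -161 on the horizontal axis), and the 3 LATS1/2-Sox9-KO libraries sit at 86.9 to 101.0, above the LATS1/2-KO libraries on the vertical axis.

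Of 19357 genes tested, 3449 (17.8%) rose and 3799 (19.6%) fell in LATS1/2-Sox9-KO, and 7142 of these 7248 genes had no overlap between the 3 and 3 libraries. Over all tested genes, called or not, the LATS1/2-Sox9-KO libraries lay wholly above control in 34.9% and wholly below it in 33.8%. The median log2 fold change of all tested genes was 0.01. Protein-coding genes made up 2722 of the genes that rose and 3173 of those that fell. Some of these genes crossed the limit of detection. In 379 of the genes that rose no control library had more than 3 counts, and in 266 of those that fell no LATS1/2-Sox9-KO library did. As in any bulk sample, fewer cells of a type and less RNA per cell cannot be told apart. For comparison, LATS1/2-KO against the same controls gave 3314 (17.1%) higher and 3391 (17.5%) lower. Directly compared, LATS1/2-Sox9-KO and LATS1/2-KO differed in 719 genes (3.71%), of which 301 (1.55% of all) were higher and 418 (2.16%) lower in LATS1/2-Sox9-KO. The counts of this last comparison depended strongly on single libraries. Without LATS1/2-Sox9-KO library 2 there were 123 higher and 78 lower, without LATS1/2-KO library 3 there were 121 and 157, and without LATS1/2-KO library 1 there were 497 and 582.

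Genes are described below in lists by their known roles, drawn up with earlier results of these data known. Each list is given with the number of tested members that rose and fell and their median log2 fold change. These are to be read against the 17.8% and 19.6% of all genes.

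**Figure D2:**
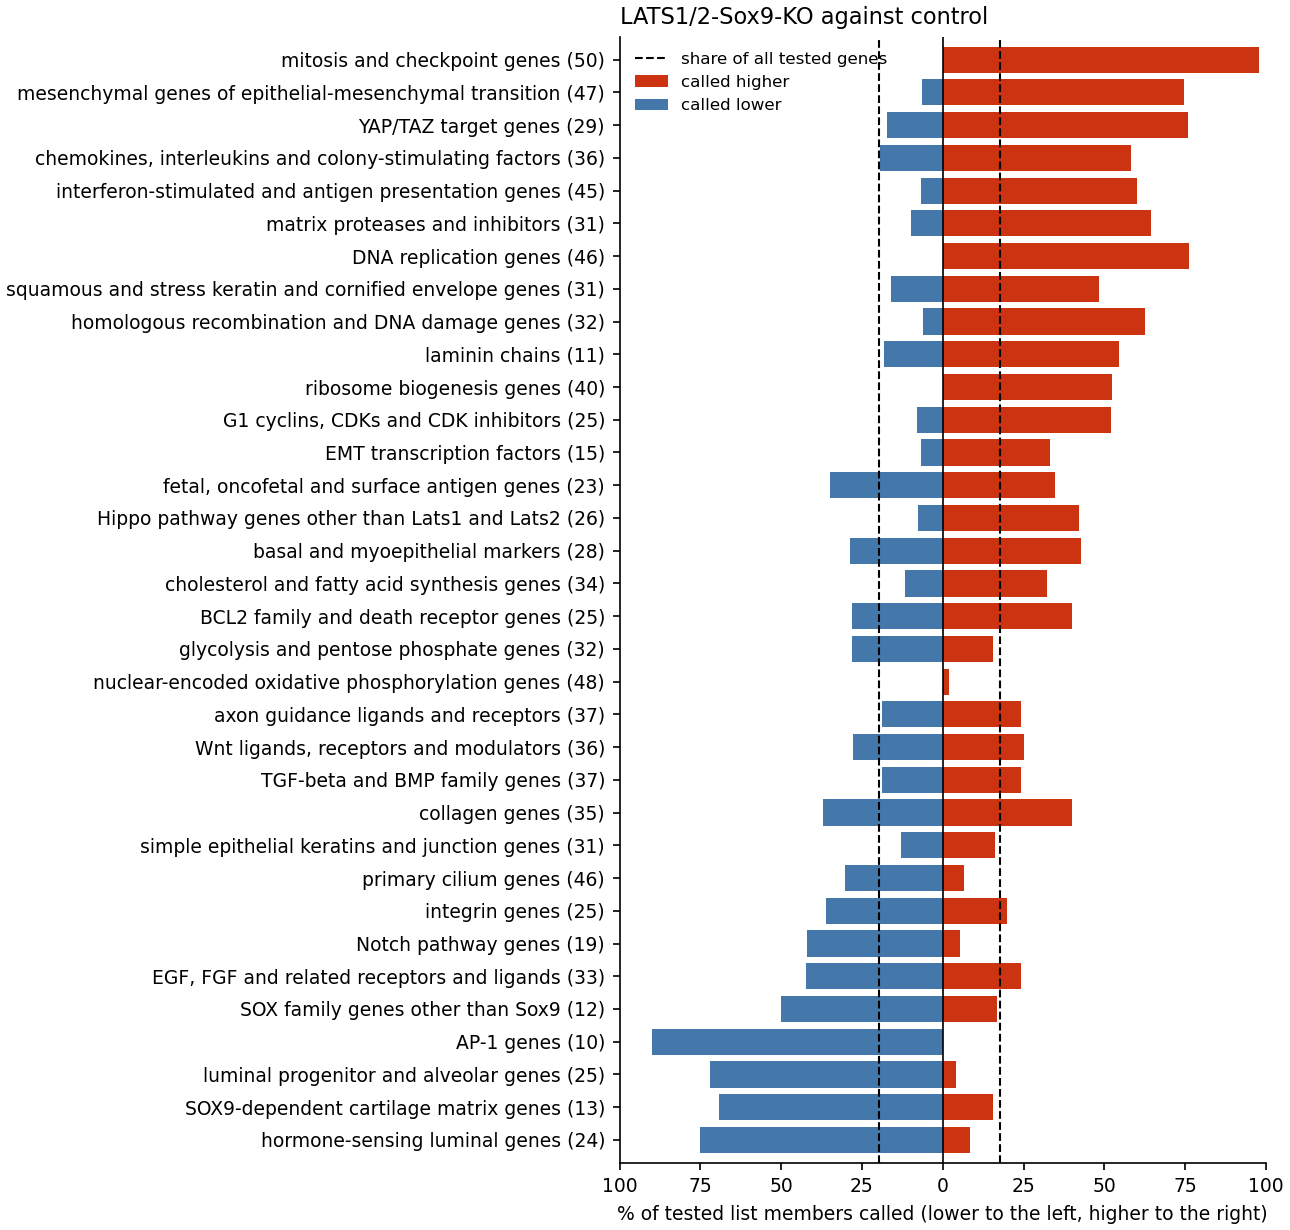
Bars give, for each list with at least 10 tested members (number in brackets), the percentage of members called higher (right) and lower (left) in LATS1/2-Sox9-KO than in control, ordered by median log2 fold change, and dashed lines mark the 17.8% and 19.6% of all tested genes. Mitosis, mesenchymal and YAP/TAZ target genes are at the top, and hormone-sensing luminal, cartilage matrix and luminal progenitor genes are at the bottom.

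YAP/TAZ target genes rose. Of 29 tested, 22 rose and 5 fell, with a median of 2.32. The list includes Lats2, which was read above as a targeted gene and was not called. Ankrd1 (chr19:36111961-36120099), an ankyrin repeat protein and one of the most used readouts of YAP activity, went from 23.2, 19.3 and 29.9 in control to 24110, 21134 and 19159, a log2 fold change of 9.80 (SE 0.35, edgeR adjusted p = 1.12e-07). The matricellular protein gene Ccn2 went from 1399, 1047 and 966 to 103830, 89847 and 64233, a log2 fold change of 6.24 (SE 0.41), with 23.2% of its exon length shared with Gm15270. Its relative Ccn1 changed far less, from 42230, 39988 and 54147 to 153240, 82545 and 75453, and its call, at 1.19 on the log2 scale, was lost without LATS1/2-Sox9-KO library 1 (log2 fold change 0.82). In all 3 genes every LATS1/2-Sox9-KO library was above every control library, and library 1 was the highest of its group. The receptor tyrosine kinase gene Axl rose from 706, 1107 and 2608 to 13311, 8189.7 and 8009, with control library 3 the highest control. Ereg, which encodes the EGF receptor ligand epiregulin, rose from 6.96, 0 and 12.4 to 1430.5, 2122 and 2112. The members that fell were Areg, Rbms3, F3, Dock5 and Arhgef17. Areg encodes amphiregulin, which hormone-sensing luminal cells make in response to estrogen, and was at 21128, 14833 and 41862 in control and 2772, 2643 and 3001 in LATS1/2-Sox9-KO.

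TEAD factors recognise the letters CATTCC, or GGAATG on the other strand. These were searched in the RefSeq promoters of GRCm38.p6, from 250 bases before to 50 bases after each start, of which 20 of the 30 listed target genes had an entry (Ccn2 had none). They occurred in 9 of 22 promoters of the target genes (40.9%), a promoter of the targeted gene Lats2 among them. The share was 14.7% of all 32851 RefSeq promoters and 12.7% of those of tested genes. It was 14.1% for genes that rose and 13.4% for genes that fell. The match is a count of letters and not evidence of binding. The 250 bases before the start are shown for 3 targets with matches, Ankrd1, Axl and Ccn1, as examples of the letters in their place. Other targets with an entry, such as Areg and Birc5, had no match. The matches are in capitals, 5′ to 3′ on the minus strand. Ankrd1 (chr19:36119845-36120094) has 2 matches, beginning 210 and 123 bases before the start, Axl (chr7:25788734-25788983) has 1 at 233 bases, and Ccn1 (chr3:145649986-145650235) has 1 at 103 bases. For Ankrd1 the RefSeq start lies inside the gene span given above, which comes from GENCODE, so the bases shown fall within that span.
Ankrd1: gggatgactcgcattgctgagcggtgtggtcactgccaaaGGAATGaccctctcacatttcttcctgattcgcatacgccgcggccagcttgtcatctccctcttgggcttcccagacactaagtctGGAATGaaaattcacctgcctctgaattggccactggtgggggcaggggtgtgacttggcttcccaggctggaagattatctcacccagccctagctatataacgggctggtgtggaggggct
Axl: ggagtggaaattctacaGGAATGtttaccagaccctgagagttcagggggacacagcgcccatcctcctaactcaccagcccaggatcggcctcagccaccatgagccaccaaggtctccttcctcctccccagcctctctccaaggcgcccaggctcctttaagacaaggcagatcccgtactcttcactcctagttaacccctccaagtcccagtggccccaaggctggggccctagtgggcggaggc
Ccn1: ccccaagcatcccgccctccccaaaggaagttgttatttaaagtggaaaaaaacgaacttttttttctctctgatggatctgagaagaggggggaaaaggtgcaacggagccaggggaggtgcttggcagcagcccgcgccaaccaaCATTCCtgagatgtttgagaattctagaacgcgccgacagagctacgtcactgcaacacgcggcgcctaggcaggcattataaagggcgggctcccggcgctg

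Within the Hippo pathway itself, 11 of 26 tested genes rose and 2 fell (median 0.62). The coactivator genes did not rise. Yap1 was at 8734, 9208 and 10127 in control and 6059, 5116 and 5138 in LATS1/2-Sox9-KO (log2 fold change -0.78, edgeR adjusted p = 0.00107), below the size needed for a call. Wwtr1, which encodes TAZ, was at 10000, 9604 and 7176 against 7379.9, 7509 and 8144, with overlap. Their TEAD partners, which carry the DNA-binding part, split. Tead1 and Tead4 rose (log2 fold changes of 1.71 and 2.67), while Tead2 fell from 12165, 14193 and 17156 to 1293, 996 and 1202 and Tead3 fell from 4532, 4709.5 and 4057 to 1829.7, 1592 and 1708. Tead2 was also lower in LATS1/2-Sox9-KO than in LATS1/2-KO, where it was at 3016, 1871 and 3626 (log2 fold change -1.29, edgeR adjusted p = 0.0142), a call lost without LATS1/2-Sox9-KO library 2 (adjusted p of 0.069). Vgll3, a cofactor that binds TEAD, was nearly silent in control at 10.4, 3.4 and 8.71 and reached 4913, 4996 and 4406. Amot, which encodes the junctional scaffold angiomotin that binds YAP, went from 1516, 1509 and 1362 to 46435, 46317 and 38788, a log2 fold change of 4.91 (SE 0.16). Tead1 and Tead4 are named after their values were seen.

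Hormone-sensing luminal genes fell. Of 24 genes tested, 18 fell and 2 rose, with a median log2 fold change of -3.69, the lowest median of the lists drawn in the plot of called shares. The progesterone receptor gene Pgr was at 17143, 20895 and 30019 in control and 43.6, 15.9 and 44.6 in LATS1/2-Sox9-KO, a log2 fold change of -9.34 (SE 0.72, edgeR adjusted p = 4.48e-06). The estrogen receptor gene Esr1 fell from 8515, 8018 and 12660 to 944, 658 and 690.4, a log2 fold change of -3.67 (SE 0.33). Foxa1, whose protein opens chromatin for the estrogen receptor, fell from 25018, 20983 and 19014 to 2165, 1074 and 1506. Pgr came much closer to 0 than the other two. Greb1, an estrogen receptor cofactor and target, fell from 4498, 4184 and 17219 to 9.28, 0 and 14.6. The growth factor gene Ptn fell from 166720, 158500 and 130400 to 191, 118 and 398. Pgr was also lower than in LATS1/2-KO, where it was at 658, 121 and 358 (log2 difference -3.43, edgeR adjusted p = 0.0136), a call lost without LATS1/2-Sox9-KO library 2 (adjusted p of 0.0589). Esr1 was at 1315, 587 and 685 in LATS1/2-KO, and that difference of -0.17 did not pass the test (edgeR adjusted p = 0.787). The members that rose were Ly6a, which encodes the surface antigen Sca-1, and the calcium-binding protein gene S100a6. Ly6a was at 6611, 11177 and 17081 in control, 7714, 14545 and 7287 in LATS1/2-KO and 57355, 44239 and 34801 in LATS1/2-Sox9-KO, so the LATS1/2-KO values overlapped control and the LATS1/2-Sox9-KO values did not. The difference between the deletion genotypes was 2.21 on the log2 scale (edgeR adjusted p = 0.0129), a call lost without LATS1/2-KO library 3 (adjusted p of 0.0527).

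Luminal progenitor and alveolar genes fell as a group as well, 18 of 25 tested, with 1 that rose and a median of -2.58. The prolactin receptor gene Prlr, which serves both luminal kinds and is in both lists, fell from 175240, 152430 and 201240 to 1774, 1953 and 2987. The surface protein gene Plet1 fell from 186930, 157170 and 86651 to 4874, 3849 and 3841, and the kappa-casein gene Csn3 from 39552, 45732 and 28165 to 9287, 5101 and 6549. For Lalba, which encodes the milk protein alpha-lactalbumin, no LATS1/2-Sox9-KO library had more than 3 counts (1.86, 0 and 0 normalized, with 445, 845 and 106 in control), so its mean level was at least 164-fold lower. The progenitor receptor gene Kit was at 22019, 21895 and 12446 in control, 6728, 33146 and 19067 in LATS1/2-KO and 5919, 6742 and 5186 in LATS1/2-Sox9-KO. It fell against control by 1.66 on the log2 scale (edgeR adjusted p = 0.011), and the difference from LATS1/2-KO of -1.72 did not pass (edgeR adjusted p = 0.0563). The alveolar transcription factor gene Elf5 also fell, from 5852, 6382 and 2413 to 1239, 1690 and 2449, with overlap between control library 3 and LATS1/2-Sox9-KO library 3. In this list 6 genes were lower and 0 higher in LATS1/2-Sox9-KO than in LATS1/2-KO (0 higher also at an unadjusted edgeR p under 0.05 and by DESeq2), against 2.16% and 1.55% of all genes, but 2 or fewer were lower without LATS1/2-KO library 3 or any 1 LATS1/2-Sox9-KO library. Csn3, at 19771, 20118 and 19695 in LATS1/2-KO, kept its call whichever 1 of the 6 libraries of the deletion genotypes was left out (log2 difference -1.51, edgeR adjusted p = 0.008 with all). Spp1, the secreted phosphoprotein osteopontin, went the other way, from 254, 352 and 24.9 in control to 1023, 901 and 1558.

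Most simple epithelial genes were called in neither direction, which does not mean that they were unchanged. Called or not, the LATS1/2-Sox9-KO libraries lay wholly above control in 11 of the 31 tested and wholly below it in 12. The shares over all tested genes were 34.9% and 33.8%. Of 31 keratin, junction and regulator genes, 5 rose (Krt8, Krt18, Krt7, Cldn1 and Ovol2) and 4 fell (Epcam, Cldn8, Tjp3 and Elf3), at a median of -0.19. The luminal keratin genes Krt8, at 172920, 168810 and 216020 in control and 461280, 444590 and 431240 in LATS1/2-Sox9-KO, and Krt18, at 239710, 247480 and 257950 against 789490, 718520 and 638920, both rose (log2 fold changes of 1.26 and 1.53). Krt7 rose more, from 34579, 32163 and 34753 to 335740, 292200 and 277260. Krt19 was at 174960, 174890 and 222370 against 157160, 139760 and 146360, a difference of -0.37 (edgeR adjusted p = 0.204) that did not pass the test. The E-cadherin gene Cdh1 was at 71580, 67987 and 62147 against 67453, 53828 and 49915 with overlap, and Esrp1, an epithelial splicing factor gene, was at 12263, 12940 and 11204 against 12223, 12567 and 12379. Epcam, the epithelial cell adhesion molecule, fell from 125310, 119830 and 107650 to 49444, 44462 and 49508. Tight junction claudins diverged. Cldn1 rose from 1323, 1498 and 519 to 25133, 23225 and 17023 and was higher than the 5812, 7183 and 5758 of LATS1/2-KO (edgeR adjusted p = 0.0152), a call lost without LATS1/2-KO library 3 or LATS1/2-Sox9-KO library 2 (adjusted p of 0.0568 to 0.0658). Cldn8 fell from 2876, 3493 and 4349.9 to 122, 97.7 and 128, and Cldn4 was at 152950, 132270 and 167820 against 172400, 134380 and 109330 with overlap.

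Basal genes were split. Of 28 tested, 12 rose and 8 fell (median 0.56). Krt14, the keratin of the basal layer, went from 909, 501 and 606 in control to 117090, 239970 and 349680, a log2 fold change of 8.45 (SE 0.53, edgeR adjusted p = 1.74e-06), and was at 252970, 140250 and 139500 in LATS1/2-KO. Its pairing partner Krt5 was at 558, 485 and 353 in control and 472, 2162 and 1579 in LATS1/2-Sox9-KO, with library 1 inside the control range, and its call at a log2 fold change of 1.59 (edgeR adjusted p = 0.0298) was lost without control library 1, 2 or 3 or LATS1/2-Sox9-KO library 2 or 3 (log2 fold changes of 1.16 to 1.75). Trp63, the master regulator gene of basal epithelium, went in the other direction, from 373, 2154 and 2133 to 32.5, 109.6 and 114, a log2 fold change of -4.19 (SE 0.69, edgeR adjusted p = 5.03e-04). Krt14 and Trp63 thus moved in opposite directions. Trp63 was lowest in library 1 of both groups. Acta2, the smooth muscle actin of myoepithelial cells, rose from 974, 992 and 662 to 3904, 5431 and 4427, but not to the 8402, 15186 and 11128 of LATS1/2-KO (log2 difference -1.33, edgeR adjusted p = 0.0135), a difference that kept its call without any 1 library. The oxytocin receptor gene Oxtr, through which myoepithelial cells contract, fell from 375, 335 and 250.2 to 82.6, 106 and 68.3, a call lost without LATS1/2-Sox9-KO library 1 or 3 (log2 fold changes of -1.86 to -1.75). Igfbp2, which encodes an insulin-like growth factor binding protein, rose from 1.16, 7.94 and 6.22 to 131720, 71086 and 68073, and the epidermal growth factor receptor gene Egfr rose from 3249, 2738 and 1355 to 13394, 14630 and 13601. Egfr did not differ beyond the spread from LATS1/2-KO (10384, 14426 and 13664, difference 0.11, edgeR adjusted p = 0.845).

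**Figure D3:**
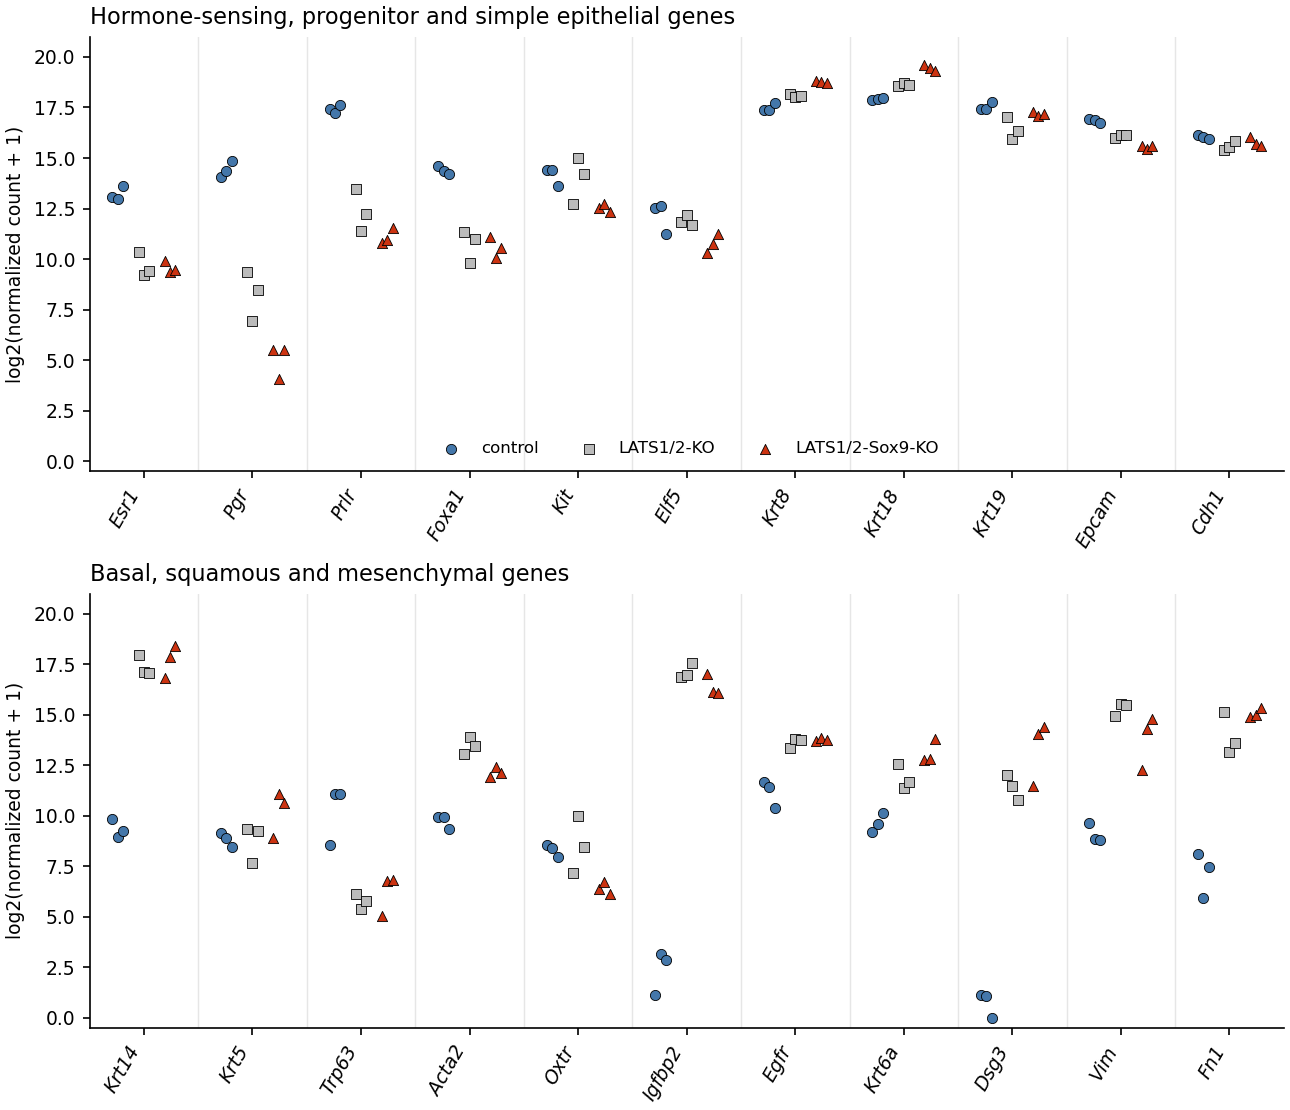
Each point is the log2 of the normalized count plus 1 of a gene in 1 library, with 3 libraries per group in the order 1 to 3. Pgr falls from 17143 or more in the control libraries to 44.6 or less, Krt8 and Krt18 are above control, and Krt14 and Trp63 move in opposite directions.

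Squamous genes changed in both directions. Of 31 tested, 15 rose and 5 fell (median 1.44), and 7 were higher and 0 lower than in LATS1/2-KO (5 to 8 higher with any 1 library left out, and 0 lower at an unadjusted edgeR p under 0.05 or by DESeq2), against 1.55% and 2.16% of all genes. Dsg3, a cadherin of the desmosomes of stratified epithelium, had at most 3 counts in each control library and 2846, 17176 and 21543 normalized counts in LATS1/2-Sox9-KO, at least 3916-fold higher, with library 1 well below the other two. Casp14, a protease of terminal keratinocyte differentiation, was at 0, 0 and 0 in control and 3472, 2834 and 2277, at least 809-fold higher. The wound keratin gene Krt6a rose from 590.4, 764 and 1141 to 7039, 7089.7 and 14336 (19.5% of its exon length overlaps a predicted gene). The members that fell were Krt1, Krt13, Krt15, Calml3 and Sprr1a. Krt15 went from 1233, 1574 and 1774 to 69.6, 91.7 and 47.4, and the cornified envelope gene Sprr1a went from 1910.3, 2938 and 10256 to 606, 355 and 761. Involucrin (Ivl), an envelope precursor, was at 6.96, 24.9 and 513 against 0.928, 59.8 and 33.7 and did not pass the test. Calml3, at 20.9, 51.0 and 452 against 4.64, 21.9 and 15.5, overlapped between the groups, and its call at -3.63 was lost without control library 3 or LATS1/2-Sox9-KO library 1 or 3 (log2 fold changes of -3.70 to -1.35).

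Mesenchymal genes rose in the same libraries in which the E-cadherin gene Cdh1 did not pass the test (log2 fold change -0.24, edgeR adjusted p = 0.189). Of 47 tested, 35 rose and 3 fell (median 2.79). Fn1, the matrix protein fibronectin, went from 274, 60.1 and 175 to 30299, 32896 and 41373, a log2 fold change of 7.68 (SE 0.72, edgeR adjusted p = 1.42e-05). The intermediate filament gene Vim went from 799, 469 and 453 to 4975, 19926 and 28551, with library 1 lowest, and was at 31667, 47791 and 45676 in LATS1/2-KO. The N-cadherin gene Cdh2 went from 65.0, 94.1 and 212 to 2070.1, 2284 and 2722. The lowest LATS1/2-Sox9-KO library was above the highest control library by several times in each of the 3 genes. Lox, which cross-links collagen, went from 3.48, 1.13 and 8.71 in control through 584, 873 and 1243 in LATS1/2-KO to 3884, 6249.7 and 5287 in LATS1/2-Sox9-KO, and the step between the deletion genotypes was 2.51 on the log2 scale (edgeR adjusted p = 0.00416) and kept its call without any 1 library. The urokinase gene Plau rose from 993, 1339 and 2588 to 121060, 79177 and 76034. The members that fell were Areg, the protease inhibitor gene Serpine2 and the integrin gene Itga5.

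Transcription factors known for epithelial-mesenchymal transition were listed apart from these effectors, and the lists were not tested against each other. Of 15 tested, 5 rose (Zeb1, Zeb2, Twist1, Twist2 and Hmga2) and 1 fell (Fosl1), with a median of 0.67 (but -0.05 when every library had to hold at least 10 counts). Zeb1, a repressor of E-cadherin, was at 23.2, 34.0 and 14.9 in control and 92.8, 172 and 228 in LATS1/2-Sox9-KO, a low level after a log2 fold change of 2.76 (SE 0.47). The Snai2 gene was at 24.4, 1.13 and 44.8 against 15.8, 53.8 and 41.9 with overlap. Hmga2, a chromatin protein of embryonic tissue, rose from 11.6, 0 and 0 to 308, 355 and 210.4. Twist1 overlapped between the groups, and its call was lost without control library 1, 2 or 3 or LATS1/2-Sox9-KO library 2 or 3 (log2 fold changes of 1.59 to 2.94). Fosl1 fell from 6065, 6185 and 5170.1 to 3465, 2319 and 2235, a call lost without LATS1/2-Sox9-KO library 3 (log2 fold change -0.99), and 57.2% of its exon length overlaps Ccdc85b.

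Matrix genes changed in composition. Among 35 collagen genes 14 rose and 13 fell, with a median of -0.18 that became 0.13 without control library 1. Col12a1, a collagen that binds fibril surfaces, rose from 216, 307 and 294 to 9444, 14450 and 13764. Col6a3, a chain of microfibrillar collagen VI, fell from 1664, 4828 and 10599 to 86.3, 187 and 259. The fibrillar collagen genes Col1a1 (266, 291 and 377 against 1236, 1354 and 2252) and Col3a1 (89.3, 153 and 443 against 1018, 1489.7 and 3131) rose and were highest in LATS1/2-Sox9-KO library 3. That library was the highest of its group for 11 of the 12 fibroblast genes given further on, though not for their sum. Among laminin chains 6 of 11 rose and 2 fell (Lama1 and Lamb2). Lama3 and Lamb3 of the epithelial laminin rose, from 2582, 3526 and 2533 to 6966, 6000.5 and 7780.5 and from 1899, 2330.4 and 1877 to 8565, 3877 and 5021. Of 25 integrin genes 5 rose (Itga3, Itga7, Itgb1, Itgb2 and Itgb6) and 9 fell, and the Itga7 call was lost without any 1 control library or LATS1/2-Sox9-KO library 1 (log2 fold changes from 0.55). The shared subunit gene Itgb1 rose from 30044, 28970 and 33710 to 124200, 92135 and 100900, and Itgb6, whose product with the alpha v chain activates latent TGF-beta, from 705, 875 and 1404 to 22050, 17655 and 15885. The laminin receptor subunit gene Itga6 fell from 18924, 21239 and 21585 to 10541, 8978 and 9011. Matrix proteases and inhibitors rose in 20 of 31 cases and fell in 3, those of Mmp15, Adamts9 and Serpine2 (median 1.95, or 1.92 with genes at the detection limit set to their bounds). By DESeq2, 5 of 32 tested fell. Adam12 went from 4.64, 0 and 13.7 to 5784, 7815 and 8572, and the serpin gene Serpinb2 from 1.16, 0 and 3.73 to 1195, 5137 and 6022, at least 1164-fold higher. Part of the Serpinb2 exons, 12.4%, overlaps Serpinb10.

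The SOX family was read because Sox9 was targeted. Of 12 other members tested, 2 rose and 6 fell (median -0.88). Sox5 fell from 158, 159.9 and 66.0 to 7.43, 6.98 and 14.6 and Sox12 from 1602, 1699.9 and 1784 to 293, 207 and 179. Sox11, an embryonic SOXC gene, had at most 3 counts in each control library and 1797, 1459 and 1573 normalized counts in LATS1/2-Sox9-KO, at least 455-fold higher. In LATS1/2-KO Sox11 was at 3500.2, 2272 and 6044, above every LATS1/2-Sox9-KO library (log2 difference -1.29, edgeR adjusted p = 0.0372), a call lost without LATS1/2-KO library 3 or LATS1/2-Sox9-KO library 1, 2 or 3 (adjusted p of 0.0837 to 0.142). Sox21 rose from 15.1, 18.1 and 4.98 to 190.3, 212 and 247, and 18.8% of its exon length overlaps Gm4675. Sox10, another SOXE gene, was at 2919, 3557 and 1541 against 2205, 1828 and 1946 and did not pass the test.

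Genes that SOX9 drives in cartilage were lower. Of 13 tested, 9 fell and 2 rose (median -2.73), and 6 were lower than in LATS1/2-KO, against 2.16% of all genes. That last count ranged from 1 to 5 with any 1 library left out, at 1 without LATS1/2-KO library 3 or LATS1/2-Sox9-KO library 2. Col9a1, a chain of cartilage collagen IX, was at 714, 907 and 192 in control, 678, 187 and 309 in LATS1/2-KO and 33.4, 25.9 and 61.9 in LATS1/2-Sox9-KO. The difference from LATS1/2-KO was -3.27 on the log2 scale (edgeR adjusted p = 0.0223), a call lost without LATS1/2-KO library 3 or LATS1/2-Sox9-KO library 1 or 2 (adjusted p of 0.0536 to 0.0966). Col9a2, which encodes another chain, was at 738, 792 and 351 in control, 548, 110.1 and 347 in LATS1/2-KO and 48.3, 32.9 and 57.4 in LATS1/2-Sox9-KO. For both genes the LATS1/2-KO libraries reached into the control range and the LATS1/2-Sox9-KO libraries were below every other library. Sox5 is a member of this list too. Col2a1, the main collagen of cartilage, was low throughout, at 12.8, 21.5 and 16.2 against 30.6, 12.0 and 19.1, and Acan, the cartilage proteoglycan gene, was listed with at most 3 counts in every library. Matn3 (0, 0 and 0 against 9.28, 14.9 and 12.8) and Col27a1 (5.8, 6.8 and 12.4 against 37.1, 37.9 and 28.2) went against the list at low levels.

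Cell cycle genes rose together. Of 50 mitosis and checkpoint genes 49 rose and 0 fell (median 3.75), and of 46 DNA replication genes 35 rose and 0 fell (median 1.61). By edgeR's unadjusted p under 0.05 the genes lower were 0 and 1, and DESeq2 called 0 lower in either list. The proliferation marker Mki67 went from 409, 896 and 365 to 8354, 8568 and 9292, a log2 fold change of 3.97 (SE 0.32, edgeR adjusted p = 5.52e-06). The mitotic cyclin gene Ccnb1 went from 16.2, 65.8 and 24.9 to 1661, 2174 and 2390.1, and the kinase gene Cdk1 from 68.4, 375 and 68.5 to 4190.3, 5436 and 5616. Control library 2 was the highest of the controls for 45 of the 50 mitosis genes, and without it their median was 4.27. Pcna, the replication clamp, was already at 5297, 5169.9 and 3877 in control and reached 8403, 8592 and 8541, a difference of 0.83 below the size needed for a call. In the edgeR comparison of the deletion genotypes 0 mitosis and 0 replication genes were called, at the adjusted threshold, at an unadjusted p under 0.05 or by DESeq2, with Mki67 at 10601, 9148 and 11317 in LATS1/2-KO. Genes of homologous recombination and the DNA damage response rose in 20 of 32 cases and fell in 2, those of Trp53bp1 and Dmc1 (median 1.31). Trp53bp1, which steers the choice of break repair, fell from 9169, 8955 and 9753 to 3307, 2763 and 2595, and the Dmc1 call was lost without control library 3 or LATS1/2-Sox9-KO library 2 or 3 (log2 fold changes of -1.88 to -1.72).

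Genes of the G1 phase rose more often than they fell. Of 25 G1 cyclins, kinases and inhibitors 13 rose and 2 fell. Cdkn2a, which encodes the tumor suppressors p16Ink4a and p19Arf, went from 27.8, 27.2 and 9.96 to 1469, 2745 and 2579.5, a log2 fold change of 6.69 (SE 0.83), and its neighbour Cdkn2b went from 89.3, 71.4 and 95.8 to 2905, 3082 and 3542. Cdkn1a, another gene of a cyclin-dependent kinase inhibitor, was at 9639.7, 10592 and 13490 against 18011, 21623 and 22043, a difference of 0.87 below the size needed for a call. The retinoblastoma family genes Rb1, from 8977, 8829 and 4864 to 1998, 2032 and 2233, and Rbl2, from 2611, 3266 and 3528 to 904, 1147 and 1192, were the members that fell. Cyclin D1 (Ccnd1), at 21734, 19631 and 12429 against 24243, 32843 and 38356, was above control in every library without reaching a call. Ribosome biogenesis genes rose in 21 of 40 cases and fell in 0, by edgeR at either the adjusted or the unadjusted p and by DESeq2 (median 1.05), for example the nucleolin gene Ncl, from 44849, 42136 and 35683 to 97072, 112960 and 111000.

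Immediate early genes were lower. Of 10 AP-1 genes 9 fell and 0 rose, also at an unadjusted p in edgeR and by DESeq2 (median -1.62). Fosb was at 416930, 318970 and 391190 in control and 85973, 54631 and 43396 in LATS1/2-Sox9-KO, a log2 fold change of -2.61 (SE 0.27, edgeR adjusted p = 2.43e-05), and Jun fell from 135000, 134000 and 182280 to 49745, 28311 and 26081. In both genes LATS1/2-Sox9-KO library 1 was the highest of its group. Fos, at 220030, 204120 and 322450 against 124610, 82022 and 72006, was among the 10 highest genes per exon length in control. AP-1 genes are known to respond to tissue dissociation, all libraries went through dissociation and sorting, and the part of handling in these values was not tested.

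Growth factor genes moved member by member. Of 33 EGF, FGF and related genes 8 rose and 14 fell (median -0.87). While Egfr rose, its relatives Erbb3 and Erbb4 fell, from 19787, 22662 and 26266 to 7229, 5839 and 6168 and from 958, 864 and 523 to 32.5, 14.9 and 2.73. Among their ligands the EGF receptor ligand gene Hbegf rose from 9627, 8494 and 8389 to 40842, 27019 and 25524 and Nrg1 from 113, 86.2 and 126 to 1965, 1540.5 and 1561, and the ERBB4 ligand gene Nrg4 fell from 2073, 780.2 and 773 to 14.9, 17.9 and 18.2. Of 36 Wnt genes 9 rose and 10 fell. Wnt7a was at 0 in all 3 control libraries and at 6870.3, 5284 and 4929.5 in LATS1/2-Sox9-KO, at least 1609-fold higher, and was at 3031, 3801 and 3624 in LATS1/2-KO. Wnt10a had at most 3 counts in each control library and 1457, 761 and 727 normalized counts in LATS1/2-Sox9-KO, at least 277-fold higher. The receptor genes Fzd10, from 841, 962 and 421 to 0.928, 0 and 7.29, and Lgr6, from 7706, 6846 and 2661 to 588, 279 and 291, fell. The Wnt list had a median of -0.17 that became 0.01 under DESeq2.

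Notch genes fell in 8 of 19 cases and rose in 1 (median -0.85). The receptor gene Notch3 was at 21687, 20156 and 16616 in control and 3158, 3435 and 3929 in LATS1/2-Sox9-KO, a log2 fold change of -2.47 (SE 0.30). The target genes Hey1 and Heyl fell from 2531, 2859.9 and 1245 to 146, 124 and 143 and from 405, 429 and 85.9 to 4.64, 21.9 and 2.73. The ligand gene Dll1 went the other way, from 115, 118 and 108 to 985, 430.5 and 509, and 20.5% of its exon length overlaps another gene. In the TGF-beta and BMP family 9 of 37 rose and 7 fell, but 11 of 39 tested fell without LATS1/2-Sox9-KO library 1 and 12 of 40 by DESeq2. Inhba, the activin A subunit, rose from 257, 115 and 119 to 9812, 14362 and 16309, and so did Fst, which encodes the activin trap follistatin, from 108, 66.9 and 48.5 to 11731, 21583 and 15748. The receptor gene Bmpr1b fell from 793, 658 and 373 to 65.0, 31.9 and 30.1. Axon guidance genes rose in 9 and fell in 7 of 37 cases. Within them the secreted class 3 semaphorin genes Sema3c (1648, 1366 and 1724 to 39316, 47679 and 43247) and Sema3e (39.4, 63.5 and 14.9 to 18305, 32642 and 29336) rose with the receptor gene Nrp2 (40.6, 81.6 and 59.7 to 2258, 4302 and 4261), and the membrane class 4 genes Sema4a (8388, 9913 and 13524 to 205, 114 and 146) and Sema4c (11318, 9992 and 6469.5 to 853, 449 and 482) fell.

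Interferon-stimulated genes were higher in LATS1/2-Sox9-KO than in either other group. Of 45 interferon and antigen presentation genes, 27 rose and 3 fell against control (median 1.97, and 1 fell without LATS1/2-Sox9-KO library 2 or 3), and 21 were higher and 1 lower than in LATS1/2-KO, against 1.55% and 2.16% of all genes. The 21 became 16 without LATS1/2-Sox9-KO library 1, 31 without its library 3 and 9 without LATS1/2-KO library 3. The 1 lower gene was H2-Ab1, a call lost without any 1 LATS1/2-Sox9-KO library. Ifit3, an antiviral RNA-response gene, was at 39.4, 73.7 and 85.9 in control, 2725, 2366 and 1638 in LATS1/2-KO and 37636, 16846 and 8879 in LATS1/2-Sox9-KO. Its log2 fold change was 8.32 against control (SE 0.63, edgeR adjusted p = 4.17e-06) and 3.24 against LATS1/2-KO (edgeR adjusted p = 0.00789). The 3 groups did not overlap. Isg15, a ubiquitin-like antiviral protein gene, was at 531, 499 and 468 in control, 4419.9, 4622 and 4967 in LATS1/2-KO and 35543, 19033 and 12633 in LATS1/2-Sox9-KO, in the same order. Ifit1, Ifit3 and Isg15 kept their calls in both comparisons without any 1 library. The LATS1/2-Sox9-KO libraries differed among themselves here. Library 1 was the highest of the 3 for 45 of the 45 genes and library 3 the lowest for 41, while over all 19357 genes library 1 was the highest for 7806 and library 3 the lowest for 6145. The summed list was at 1252200, 740280 and 556000, against 412390, 367780 and 407170 in control and 346420, 369280 and 379680 in LATS1/2-KO. B2m was the most abundant member in LATS1/2-Sox9-KO and H2-K1 in control. Gene by gene, 20 of the 45 were higher and 4 lower in LATS1/2-KO than in control (median 0.92), against 17.1% and 17.5% of all genes.

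Antigen presentation genes did not follow as one. B2m, the light chain of MHC class I, rose from 54229, 45931 and 51250 to 186960, 138350 and 108370 and was above the 62540, 67816 and 65226 of LATS1/2-KO (log2 difference 1.15, edgeR adjusted p = 0.00849), although without LATS1/2-Sox9-KO library 1 this difference was 0.95, under the size of a call. The heavy chain gene H2-K1 was at 119440, 101150 and 112970 against 158150, 105240 and 88245 with overlap. The peptide transporter gene Tap2 was lower in LATS1/2-Sox9-KO, from 18629, 17063 and 21807 to 13479, 8361 and 6345, a call at -1.03 that was lost without control library 3 or LATS1/2-Sox9-KO library 2 or 3 (log2 fold changes of -0.93 to -0.80) and with no filter on low counts. The MHC class II genes were at the low end. H2-Ab1 fell from 423, 217 and 192 to 41.8, 22.9 and 23.7, and Cd74 from 742, 356 and 274 to 78.0, 30.9 and 73.8, a call lost without control library 1 or LATS1/2-Sox9-KO library 1, 2 or 3 (log2 fold changes of -3.10 to -2.36).

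**Figure D4:**
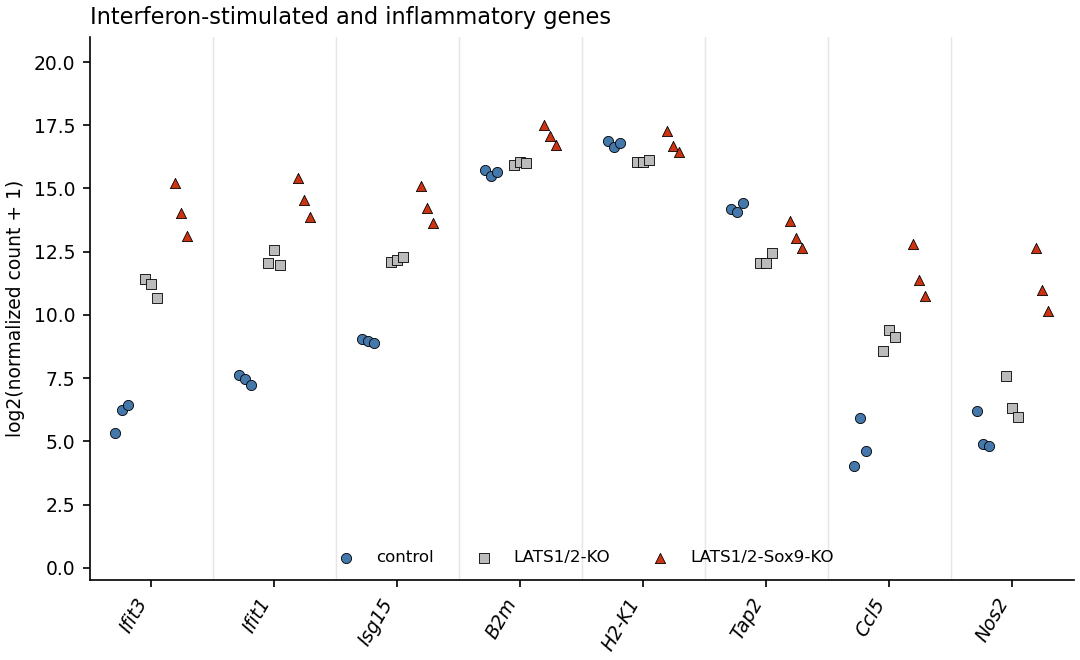
Each point is the log2 of the normalized count plus 1 in 1 library, with 3 libraries per group in the order 1 to 3. Ifit3, Ifit1, Isg15, Ccl5 and Nos2 are highest in LATS1/2-Sox9-KO, where library 1 is above libraries 2 and 3, and Tap2 is below control and H2-K1 overlaps it.

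Genes of inflammatory signals rose more often than they fell. Of 36 chemokine, interleukin and colony-stimulating factor genes, 21 rose and 7 fell (median 2.15), and 7 were higher than in LATS1/2-KO (4 without LATS1/2-KO library 3 or LATS1/2-Sox9-KO library 2) and 1 lower (Cxcl14, called in none of the fits without LATS1/2-KO library 2 or 3 or LATS1/2-Sox9-KO library 2 or 3), against 1.55% and 2.16% of all genes. The T cell chemokine gene Ccl5 was at 15.1, 60.1 and 23.6 in control, 378, 685 and 556 in LATS1/2-KO and 7218, 2694 and 1707 in LATS1/2-Sox9-KO. The alarmin gene Il1a was at 1.16, 0 and 4.98 in control, 16.0, 13.6 and 25.5 in LATS1/2-KO and 188, 247 and 182 in LATS1/2-Sox9-KO. Both were called against each of the other groups, and the Ccl5 difference from LATS1/2-KO was lost without LATS1/2-KO library 3 (adjusted p of 0.0746) by edgeR. Nos2, the inducible nitric oxide synthase, had one of the 5 largest rises against LATS1/2-KO, at 71.9, 28.4 and 27.4 in control, 189, 77.9 and 61.1 in LATS1/2-KO and 6359, 2019 and 1135 in LATS1/2-Sox9-KO. Cxcl12, a chemokine of stroma and lymphoid tissue, fell from 277, 1622 and 8472 to 51.1, 48.8 and 66.5. Cxcl1 was at 6672, 7796 and 8692 against 11596, 7410.5 and 7273 with overlap.

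Genes of oxidative phosphorylation moved little, and those of glycolysis changed in both directions. Of 48 nuclear-encoded genes of oxidative phosphorylation 1 rose (Uqcrq) and 0 fell (median 0.10), with 8 lower at an unadjusted edgeR p under 0.05 and 0 by DESeq2, a called share far under that of all genes. Glycolysis and pentose phosphate genes rose in 5 cases (Pgk1, Eno1, Slc16a1, Rpia and Fbp2) and fell in 9 of 32, shares of 15.6% and 28.1% against 17.8% and 19.6% of all genes. The hexokinase gene Hk2 fell from 11780, 9433 and 9042 to 2016, 1100.1 and 1158, the enolase gene Eno1 rose from 4485, 4016 and 4210.5 to 18138, 20164 and 20568, and Ldha was at 19632, 19518 and 20877 against 26857, 31185 and 31609, a difference of 0.58 below the size needed for a call. Among 34 genes of lipid synthesis 11 rose and 4 fell, and without control library 2 the counts were 7 and 5. Control library 1 was the highest of the controls for 29 of the 34 genes. Hmgcs1 and Hsd17b7 of cholesterol synthesis rose, from 8901, 4283 and 7183 to 29094, 24962 and 29855 and from 1924, 1056 and 855 to 5525, 7319 and 8973. The members that fell, Srebf1, Scd1, Scd2 and Acss2, serve fatty acid synthesis and its control, and Srebf1 went from 25813, 12642 and 16181 to 5017, 3066 and 2891. The Scd1 call was lost without control library 1 or 3 or LATS1/2-Sox9-KO library 2 (log2 fold changes of -1.05 to -1.02).

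Primary cilium genes fell in 14 of 46 cases and rose in 3 (Kif3a, Bbs7 and Arl6), at a median of -0.27, and the rises numbered 1 without control library 1 and 6 without control library 3. The Kif3a call, at 1.01, was lost without control library 1 or 2 (log2 fold changes of 0.92 to 0.95), and it was also lost by DESeq2, with RLE or upper-quartile factors and with at least 10 counts in every library, and the Arl6 call was lost without control library 1 (log2 fold change 0.93). Arl13b, a GTPase of the ciliary membrane, fell from 6927, 6998 and 7162 to 2282, 2179 and 2531, while the transport gene Ift88 was at 1422, 1465 and 1852 against 1349, 1536 and 1602 with overlap. HOX genes were mostly too low to test. Only 5 of 28 passed the filter, of which Hoxb3 and, with overlap, Hoxd8 fell, but without control library 1 or 3 or LATS1/2-Sox9-KO library 1 or 3 the genes that fell numbered 1. Hoxb3, whose exons overlap its antisense gene over 52.9% of their length, fell from 610.1, 762 and 543 to 321, 154 and 165. Apoptosis regulators rose in 10 and fell in 7 of 25 cases. The death-promoting BH3 genes split, with Pmaip1 (NOXA) rising from 313, 440.0 and 407 to 8435, 14827 and 18146 and Bcl2l11 (BIM) falling from 6128, 5862 and 3424 to 1421, 809 and 816. Bcl2 itself was at 2019, 2154 and 1039 against 1499, 1548 and 1431 with overlap.

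The largest rises were of genes with almost no counts in control. By fitted log2 fold change the 10 largest rises were Msln, Wnt7a, Serpinb9b, Casp14, Klra4, Arsj, Prss27, Ang2, Igfbp2 and Dsg3. Msln, which encodes mesothelin, a surface antigen of mesothelium and of several carcinomas, was at 0, 4.54 and 0 in control and 87021, 113010 and 119130 in LATS1/2-Sox9-KO, a log2 fold change of 15.94 (SE 0.51, edgeR adjusted p = 7.69e-08). It was at 58701, 41544 and 39867 in LATS1/2-KO, so the 3 groups did not overlap, and the step between the deletion genotypes was 1.19 on the log2 scale (edgeR adjusted p = 0.026), a call lost without LATS1/2-KO library 2 or 3 or LATS1/2-Sox9-KO library 2 or 3 (adjusted p of 0.063 to 0.103). Msln belongs to a list of 23 fetal, oncofetal and surface antigen genes, of which 8 rose and 8 fell. Serpinb9b, a granzyme inhibitor family gene, was at 0 in control, 255, 141 and 145 in LATS1/2-KO and 1598, 4108 and 4242 in LATS1/2-Sox9-KO, at least 937-fold above control. Klra4, of a killer cell lectin-like receptor family whose members are close in sequence, was at 0 in control and 252, 3058 and 4158 in LATS1/2-Sox9-KO, at least 703-fold higher, with library 1 far below the other two. Reads of such families that align to several members were not counted.

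The 10 largest falls were Prrt1, Ptpn5, Aoc1, Asic2, Olfm4, Dmbt1, Slc10a5, Amtn, Dscam and Cyp3a57. Prrt1, a membrane protein gene studied in neurons, went from 6836, 5373 and 10460 in control to 40.1, 2.54 and 28.3 in LATS1/2-KO and to 0 in every LATS1/2-Sox9-KO library, at least 2665-fold lower. The phosphatase gene Ptpn5 went from 8967, 9632 and 12054 to 0.928, 0 and 0, at least 3603-fold lower, and the cell adhesion gene Dscam from 3679, 5196 and 4625 to 2.78, 0 and 0.911, at least 1587-fold lower. Dmbt1, a secreted scavenger protein of mucosal surfaces, fell from 103170, 163370 and 21644 to 4.64, 4.98 and 45.5. Aoc1 was uneven in control, at 24.4, 122 and 2856, and at 0 in LATS1/2-Sox9-KO.

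Counted per kilobase of exon, the genes at the top changed as well. In control the highest was Gpx3, a secreted glutathione peroxidase, at 280620 ± 122160 normalized counts per kilobase (mean ± SD, n = 3), followed by Krt18 at 172840 ± 6369. In LATS1/2-Sox9-KO the highest was Krt18 at 498010 ± 52422, followed by Anxa1, which encodes the phospholipid-binding protein annexin A1, at 265340 ± 55282. In Gpx3 the libraries went from 367830, 394410 and 764030 normalized counts to 347, 354 and 444. Gpx3 was also lower than in LATS1/2-KO (9359, 952 and 3049.8, log2 difference -3.54, edgeR adjusted p = 0.0196), a call lost without LATS1/2-Sox9-KO library 1, 2 or 3 (adjusted p of 0.0559 to 0.0866). Krt14 per kilobase was at 382 ± 121 in control and 134000 ± 66187 in LATS1/2-Sox9-KO, below B2m at 168090 ± 46121 and above the Krt8 pseudogene Krt8-ps at 120420 ± 3757, whose reads resemble those of Krt8. The spread of Krt14 exceeded these gaps. The translation factor gene Eef1a1 stood at 113010 ± 6342 and 115160 ± 6186 in the 2 groups.

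Against LATS1/2-KO, the largest falls included those of Colgalt2, Slc35f3, Gpr37 and Ptn, of which the Slc35f3 call was lost without LATS1/2-KO library 3 or LATS1/2-Sox9-KO library 1, 2 or 3 (adjusted p of 0.0687 to 0.0878) by edgeR. Colgalt2, a collagen galactosyltransferase gene, was at 198, 266 and 161 in control, 166, 801 and 199.7 in LATS1/2-KO and 0.928, 3.99 and 15.5 in LATS1/2-Sox9-KO. The growth factor gene Ptn was at 11586, 451 and 1858 in LATS1/2-KO, and its call (log2 difference -4.29, edgeR adjusted p = 0.0362) was lost without LATS1/2-KO library 3 or LATS1/2-Sox9-KO library 1, 2 or 3 (adjusted p of 0.0604 to 0.134). Gpr37, an orphan receptor gene, was at 0 in control, 115, 95.7 and 280.0 in LATS1/2-KO and 6.5, 0.996 and 8.2 in LATS1/2-Sox9-KO, so LATS1/2-KO held most of its counts. The calls of Colgalt2, Gpr37, Nos2, Serpinb9b and Ifit1bl1 held without any 1 library. The 5 largest rises were Nos2, Spink8, Serpinb9b, Ifit1bl1 and Tigit, of which the Spink8 call was lost without LATS1/2-KO library 2 or 3 or LATS1/2-Sox9-KO library 2 (adjusted p of 0.0536 to 0.0675) by edgeR. Ifit1bl1, a relative of Ifit1, was at 3.48, 5.67 and 11.2 in control, 504, 517 and 387 in LATS1/2-KO and 12887, 7288 and 4219 in LATS1/2-Sox9-KO. Tigit, known as an inhibitory receptor of lymphocytes, was at 0, 0 and 7.47 in control, 16.0, 14.4 and 51.1 in LATS1/2-KO and 257, 550.0 and 548 in LATS1/2-Sox9-KO, a call lost without LATS1/2-Sox9-KO library 2 (adjusted p of 0.0621) by edgeR. The T cell gene Cd3e was at 0 in every LATS1/2-Sox9-KO library, and Cd3g was at 1.86, 2.99 and 0.

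Markers of other cells in the gland were read in every library, since a sort can carry them along. Of 12 tested immune genes of 20 listed, 5 rose (Adgre1, Csf1r, Fcgr3, C1qa and C1qb) and 0 fell, also at an unadjusted edgeR p under 0.05 and by DESeq2. The summed list was at 1234, 960.5 and 845 in control and 3989.8, 4017 and 5626 in LATS1/2-Sox9-KO, where Csf1r was most abundant. Csf1r, the receptor of colony-stimulating factor 1 and a macrophage gene, rose from 208, 128 and 139 to 2716, 3122 and 3875, and 15.1% of its exon length overlaps Hmgxb3. The pan-leukocyte gene Ptprc was at 40.6, 55.6 and 17.4 against 84.5, 29.9 and 107 and the myeloid gene Lyz2 at 430.3, 159.9 and 107 against 249.7, 204 and 439.9, both with overlap. The macrophage gene Cd68, at 406, 404 and 398 against 358, 327 and 245, was below control in every library without reaching a call. The complement gene C1qb rose from 10.4, 4.54 and 18.7 to 138, 91.7 and 326. Cd3e and Ms4a1 were at 0 in all 6 libraries.

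Fibroblast and adipocyte genes differed between the LATS1/2-Sox9-KO libraries. Of 12 fibroblast genes 4 rose (Col1a1, Col1a2, Col3a1 and Mfap5) and 2 fell (Pdgfra and Dcn). The summed list, led by Gsn in both groups, was at 31963, 28536 and 45899 against 39730, 51668 and 49273. Decorin (Dcn) fell from 1626, 3291 and 8162 to 27.8, 119.6 and 325, and lumican (Lum) was at 3.48, 5.67 and 22.4 against 16.7, 28.9 and 108 with overlap. Library 3 was the highest of the LATS1/2-Sox9-KO libraries for 11 of the 12 genes and library 1 the lowest for 11, where over all 19357 genes library 3 was the highest for 5993 and library 1 the lowest for 7823. Vim, Col1a1 and Col3a1 followed the same order, and the part of fibroblast RNA in their values was not tested. Among the controls, library 3 was the highest for 8 of the 12 fibroblast genes, against 7634 of all 19357 genes. Dcn, Col6a3 and Cxcl12 were likewise highest in control library 3 and lowest in control library 1. The part of fibroblast RNA in their falls was not tested either. Adipocyte genes summed to 719, 567 and 678 in control and 410.3, 2736 and 1863 in LATS1/2-Sox9-KO, with Fabp4 most abundant, and to 669, 8815 and 4651 in LATS1/2-KO. Of 10 tested 4 rose (Adipoq, Cidec, Lep and Cfd) and 1 fell (Pparg). The 4 became 1 without any 1 control library or LATS1/2-Sox9-KO library 2 or 3, and 0 when the 2 groups were fitted alone. The adipokine gene Cfd was at 0 in control and at 0.928, 861 and 359.8 in LATS1/2-Sox9-KO. Adipoq was at 0, 0 and 3.73 against 0.928, 97.7 and 42.8, with overlap, and Cidec overlapped as well. Library 1 had next to none of Cfd and Adipoq, and both of these calls were lost when LATS1/2-Sox9-KO library 2 or 3, or any 1 control library, was left out.

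The other lists were lower or level. Endothelial genes summed to 8639.9, 7025 and 10910 in control, where Vwf led, and 594, 1214 and 1416 in LATS1/2-Sox9-KO, where Kdr led, with 1 of 12 risen (Kdr) and 4 fallen (Tek, Eng, Vwf and Plvap). Vwf fell from 5566, 4609.7 and 5222 to 62.2, 116 and 181, but the pan-endothelial genes Pecam1 (270.2, 268 and 467 against 61.3, 209 and 336) and Cdh5 (74.2, 47.6 and 74.7 against 30.6, 90.7 and 98.4) overlapped. Pericyte genes summed to 24492, 22969 and 18245 against 5207, 4710.2 and 5164, with Notch3 most abundant, and 3 of 7 fell (Rgs5, Notch3 and Des), Rgs5 from 142, 102 and 189 to 14.9, 21.9 and 31.9. Erythroid genes summed to 142, 145 and 119 against 2.78, 0 and 0.911, and most of the control sum was Alas2. Alas2, of whose exon length 12.9% overlaps Apex2, fell together with Hba-a1 (1 of the 2 without control library 1 or LATS1/2-Sox9-KO library 2 or 3). Hbb-bs was at 0, 1.13 and 0 in control and 0 in LATS1/2-Sox9-KO. Schwann cell and melanocyte genes summed to 9239.5, 8746 and 5643 against 8486, 8753 and 8218, with Mbp most abundant, and 5 of 7 fell, Ncmap, Cdh19 and Pmel among them. Ncmap, a gene of myelinating Schwann cells, fell from 419, 293 and 477 to 21.4, 36.9 and 29.1. The labelled luminal origin was read from Krt8, Krt18 and Epcam, none of which was under the 44462 normalized counts of Epcam in LATS1/2-Sox9-KO library 2.

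**Figure D5:**
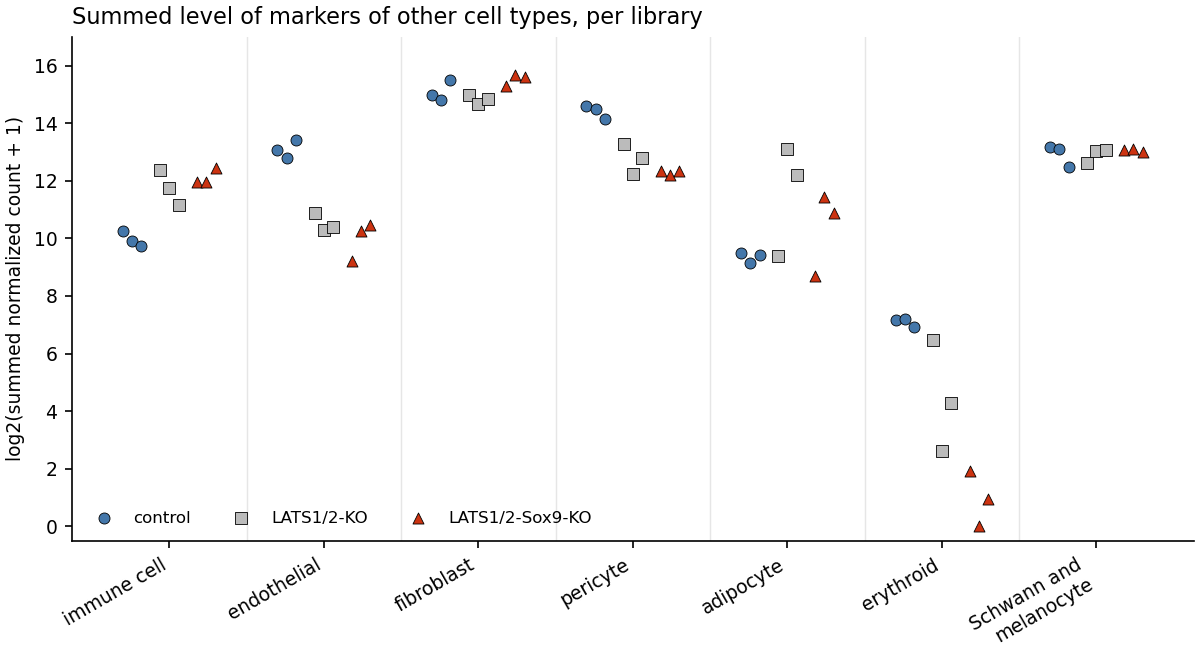
Each point is the log2 of 1 plus the summed normalized counts of a marker list in 1 library, with 3 libraries per group in the order 1 to 3. In LATS1/2-Sox9-KO the immune sum is above control, the endothelial, pericyte and erythroid sums are below it, and the adipocyte sum is above control in libraries 2 and 3 and below it in library 1.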

How the data were processed

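Bulk RNA-seq was carried out on EYFP+ cells sorted from mammary glands, 3 libraries for each of the 3 genotypes. The deposited values were gene counts, which the authors made by aligning paired reads to mm10 (STAR, 2.6.0c) and assigning read pairs that aligned properly and to 1 place to Ensembl genes (featureCounts of Subread, 1.6.2), with mitochondrial genes left out. The study names a kit that does not mark strand, yet describes the counted pairs as on the same strand, so how far overlapping genes on opposite strands were told apart is uncertain. The 9 columns of counts were all used (0 left unused). The table held no fold changes or p-values.

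Genes passing filterByExpr (19357) were normalized by TMM and tested in edgeR (4.0.16, R 4.3.3) with the quasi-likelihood test on all 9 libraries, with Benjamini-Hochberg adjustment. Spread across 3 libraries a side limits single-gene exact tests, which cannot go below a two-sided p of 0.1. Tested on simulated data for the LATS1/2-Sox9-KO against control comparison (19357 genes, 100 changed by each size), edgeR recovered 87% of log2 changes of 2 and 100% of log2 changes of 4, and called 8 unchanged genes, where DESeq2 recovered 95% and 100% and called 51 unchanged genes. The simulation drew every group from the control means with edgeR's own dispersions, and its changed genes left out those with low counts. In the real comparison 37.4% of genes were called, many of them from or to almost no counts. The simulated rates, and the order of the 2 tools in them, therefore need not hold for the real data. Alternatives used DESeq2 (1.42.0), other scalings and filters, a replicate block, glmTreat and each library left out in turn. A floor of 3 counts per library set the bounds on folds. They divide the mean of the higher group by that floor and cover counting error only, not the spread between libraries. Coordinates, exon lengths and overlaps came from GENCODE M21 on GRCm38, and promoters from RefSeq on GRCm38.p6.

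Libraries were chosen by their labels and gene lists by known roles, in both cases with earlier results of these data known. Genes named were the targeted genes, anchors of each list, the 2 largest rises and falls per list among called genes without overlap and with a mean of at least 100 in the higher group, members of 5 or fewer that went against their list, the 10 largest rises and falls, the 10 highest genes per exon length in each group, and the 5 largest rises and falls against LATS1/2-KO. Genes given in brackets after a count of 5 or fewer, Tead1, Tead4, Cd68, Lyz2, Lum, Cdh5 and Cd3g, and the printed promoters of Axl and Ccn1, which stand in for that of Ccn2, were chosen after their values were seen. Some single genes are not reported here.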

Additional observations from a re-analysis of the deposited data

How the results depend on the processing

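Against control, 3449 genes higher and 3799 lower became 2240 and 2468 when edgeR's glmTreat tested for a fold change above 2, 2452 and 2860 when every library had to hold at least 10 counts, and 3595 and 4226 with DESeq2. Leaving out each library in turn gave 3265 to 3527 higher and 3423 to 3720 lower. Against LATS1/2-KO, 301 higher and 418 lower became 509 and 750 with DESeq2 and 18 and 14 with glmTreat, and leaving out each library in turn gave 121 to 497 higher and 78 to 582 lower. With no filter on low counts they were 432 and 563. The cause of these shifts was not tested. Libraries with the same number did not deviate together between control and LATS1/2-Sox9-KO (correlations of 0.0375, 0.0186 and 0.0202), and between LATS1/2-KO and LATS1/2-Sox9-KO the correlations were 0.1049, 0.1695 and -0.0322, so the numbers were not taken to pair them. A replicate block gave 3399 and 3688 calls against control and 265 and 336 against LATS1/2-KO. Among the genes named against control, the calls of Itga7, Krt5 and Twist1 were lost with the block. Other scalings moved the median of all genes by less than 0.1 on the log2 scale. Over the named genes and alternatives, 4197 values against control, called or not, stayed on the same side of the threshold, 116 lost a call, 15 gained one and 0 reversed. List medians of collagen, transition factors, fetal, Wnt, axon guidance and HOX genes changed sign under at least 1 alternative, and the fetal median went from 0.63 to -1.07 with at least 10 counts in every library. With 3 libraries a group, genes with small or uneven changes, above all against LATS1/2-KO, were at the limit of what these data resolve.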
